A study of Mus musculus with 3 samples.

Results

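Popliteal lymphnodes of wildtype C57Bl/6 females (B6F) were set against those of wildtype C57Bl/6 males (B6M) across the genes of the 19 autosomes. Expression was given as FPKM, a count of sequenced fragments divided by the length of the transcript and by the depth of the library. A gene was kept when its mean over B6F and B6M was 5 FPKM or more and none of its entries lay on chromosome X, Y or the mitochondrial genome. This left 10307 of the 48568 gene symbols in the tables, after 305 X-linked, 4 Y-linked and 15 mitochondrial symbols at the same level were set aside. Each gene was then described by its log2 ratio, the log2 of (FPKM + 1) in B6F minus that in B6M, and 2-fold refers to this scale. A pseudocount of 1 FPKM understates the change of low genes. A gene below 5 FPKM in 1 pool was kept only through the other pool, so counts past 2-fold partly follow from this minimum. The genes nearest to the minimum were BC026585, just inside it with 5.08 FPKM in B6F and 4.93 FPKM in B6M, and Trmt61b, just outside it with 5.26 FPKM in B6F and 4.74 FPKM in B6M.

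B6F was RNA pooled from the nodes of 6 wildtype females and B6M was RNA pooled from 6 wildtype males, all aged 5 months and untreated. A pool named SryHi held RNA of 3 C57Bl/6 XY males of the FCG model, also aged 5 months. In this model Sry is missing from the Y chromosome and carried as an autosomal transgene, and the study describes it as overexpressed in the males. Whole nodes, stroma included, were homogenised, and ribosomal RNA was depleted before stranded libraries were made. With 1 pooled library per group there was no replicate, so no test across animals was possible, no p-value is given, and a difference between the pools cannot be told apart from a difference between these particular animals, dissections or libraries. The 95% intervals below are exact (Clopper-Pearson) and cover counting error only. They rest on fragment numbers estimated from FPKM, transcript length and a depth of about 5900000 fragments in B6F and about 6700000 in B6M, read from the step between low values.

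A lymph node is a filter on the lymph vessels in which lymphocytes meet antigen. Naive lymphocytes enter it from the blood through high endothelial venules, whose cells carry sugar-coated proteins that slow passing lymphocytes, and are placed in T cell and B cell areas by chemokines of the stroma. Macrophages line the sinuses through which lymph flows and take up particles and dying cells, while neutrophils are rare in a resting node. The tissue label was borne out by lymphocyte and stromal markers in both pools. Cd79a, a chain of the B cell receptor, had 236 FPKM in B6F and 288 FPKM in B6M. Trbc2, a T cell receptor constant region, had 164 FPKM in B6F and 99.1 FPKM in B6M, and Cxcl13, the chemokine of the B cell follicle, had 155 FPKM in B6F and 216 FPKM in B6M. None of the 16 keratinocyte and epithelial genes listed reached a mean of 5 FPKM, and none of the 9 milk protein and mammary genes did.

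The autosomal genes were close to each other in the 2 pools. The median log2 ratio over all 10307 genes was 0.02, and 223 genes (2.16%) were at least 2-fold higher in B6F, while 205 (1.99%) were at least 2-fold lower. Most of these were short or unusual features. Of the 10307 genes, 8853 were protein-coding with a longest transcript of 300 nt or more, and among these the median was -0.01, with 40 genes (0.452%) at least 2-fold higher and 79 (0.892%) at least 2-fold lower in B6F. The quartiles of protein-coding genes were -0.22 and 0.19, and the outermost percentiles -0.97 and 0.78. A ratio above 0 was found for 5376 of the 10307 genes and for 4368 of the 8853 protein-coding ones. These numbers and the 2-fold shares are the background for the counts in the lists below. The remaining 1454 genes held 183 higher and 126 lower, and 176 of these 309 had no transcript as long as 300 nt. Rescaling both pools to one FPKM sum over all symbols changed the split to 23 higher and 175 lower among protein-coding genes, and to 162 higher and 324 lower among all. For all 119 protein-coding genes past 2-fold the counting interval of the ratio excluded 1, but counting error is only a part of the error between pools of animals. The genes were picked by that same ratio, so the intervals add no support. For genes with near-identical copies, the intervals do not cover how shared fragments were assigned.

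**Figure D1:**
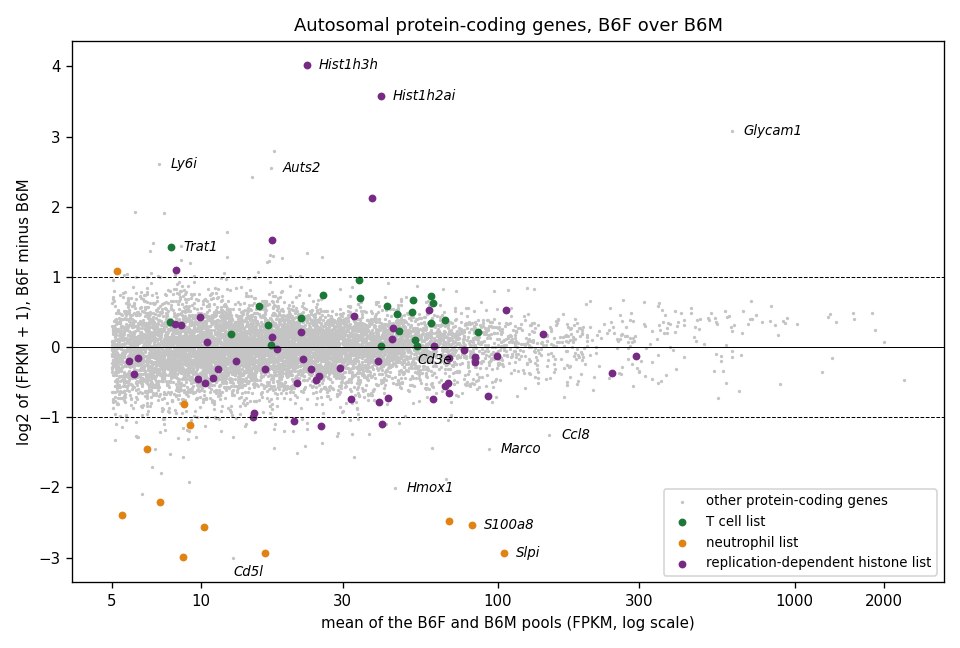
Each point is an autosomal protein-coding gene with a transcript of 300 nt or more. The horizontal axis is its mean FPKM over the B6F and B6M pools on a log scale and the vertical axis its log2 ratio, B6F over B6M, with dashed lines at 2-fold; 40 genes lie on or above the upper line and 79 on or below the lower one, and neutrophil genes fill much of the lower edge.

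Steps beyond 2-fold thinned out fast. At 4-fold there were 8 protein-coding genes higher and 11 lower in B6F, and at 8-fold 3 higher and 1 lower. The spread between the pools was wider in low genes, with an SD over genes of 0.42 in the lowest of 5 equal bins by mean FPKM and 0.33 in the highest. It was also wider in short transcripts, with an SD of 0.46 in the shortest of 5 equal bins and 0.29 in the longest. The shortest bin, with transcripts up to 1771 nt, held 21 of the 40 higher and 39 of the 79 lower genes.

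Along the genome, chromosome medians of protein-coding genes ran between -0.07 on chromosome 15 and 0.05 on chromosome 3. X-linked protein-coding genes, which were set aside, had a median of 0.09. Chromosome 13 had 7 genes higher and 7 lower among 359, which is 1.95% each way against 0.452% and 0.892% over all autosomes, and 9 of these were histone genes. Chromosomes 1, 6 and 8 had 0 genes at least 2-fold higher and 2, 2 and 3 lower. At 6 places the genome held neighbouring measured protein-coding genes past 2-fold in the same direction. The only one with 3 genes, and the only one that was higher in B6F, was Hist1h2bl, Hist1h2ai and Hist1h3h on chromosome 13. The 5 lower ones were the pairs S100a8 and S100a9 on chromosome 3, Chchd10 and Vpreb3 on chromosome 10, Ccl2 and Ccl7 and, close by, Ccl12 and Ccl8 on chromosome 11, and Cma1 and Mcpt4 on chromosome 14.

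**Figure D2:**
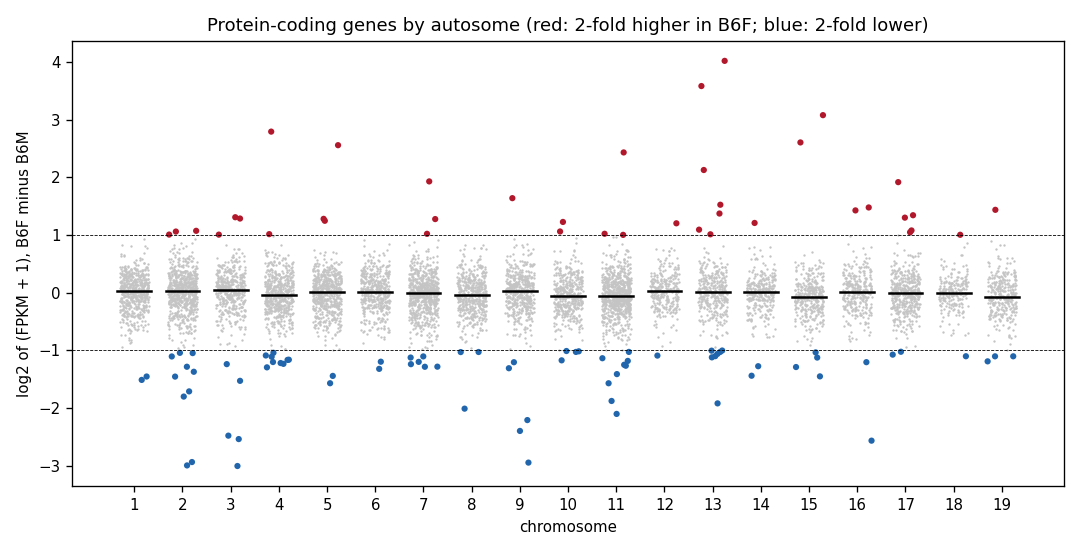
Log2 ratios (vertical axis, B6F over B6M) of protein-coding genes on each autosome (horizontal axis). Grey points are genes within 2-fold, red points are at least 2-fold higher and blue points at least 2-fold lower in B6F, and black bars are medians, which stay between -0.07 and 0.05, while chromosome 13 carries the points at 3.58 and 4.02.

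Among genes of the high endothelial venule, Glycam1 had the largest ratio. It encodes a secreted, heavily glycosylated mucin of these venules. Glycam1 had 1098 FPKM in the B6F pool, against 129 FPKM in the B6M pool and 89.8 FPKM in the SryHi pool, a B6F over B6M ratio of 8.49 (counting interval 8.08 to 8.92) and a log2 ratio of 3.08. The B6F pool stood apart from both pools of males. Of 22 listed genes of these venules 13 were measured, and their median was -0.01 beside 0.02 over all autosomal genes, with 2 at least 2-fold higher and 0 lower. The other gene past 2-fold was Ubd, a ubiquitin-like modifier made by activated endothelium and dendritic cells, with 33.1 FPKM in B6F and 12.5 FPKM in B6M (log2 ratio 1.34). Apoe, which macrophages also make in large amounts, was the most abundant with Glycam1, at 733 FPKM in B6F and 1056 FPKM in B6M (-0.53). Parts of the venule that are not Glycam1 thus stood on both sides of 0. Ackr1, the atypical chemokine receptor of venules, had 10.7 FPKM in B6F and 7.60 FPKM in B6M (0.44). Cd34, a sialomucin of endothelium, had 16.3 FPKM in B6F and 16.4 FPKM in B6M. Enpp2, autotaxin, had 142 FPKM in B6F and 168 FPKM in B6M. The 9 listed venule genes below the minimum also stood on both sides of 0. Their log2 ratios were 0.47 (Chst4), 0.25 (Selp), 0.22 (Chst2), 0.16 (Sele) and 0.01 (Madcam1). On the lower side were Fut7 (-0.13), Podxl (-0.30), B3gnt3 (-0.32) and Nfasc (-0.55).

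The promoter of Glycam1 is shown because this gene had the largest ratio among genes of the high endothelial venule. Those of the neighbours Hist1h2ai and Hist1h3h are shown because they had the largest ratios of protein-coding genes, though both have near-identical copies. Those of Lcn2 and Ngp are shown for the genes of neutrophil granules at the other end. All are from RefSeq on build GRCm38.p6, 300 bases around the start of transcription. Capitals mark every match, on either strand, to the TATA box TATAAA, to the CCAAT box, or to TTGNNCAA, a palindromic core of sites bound by C/EBP factors. Of 31396 autosomal promoters of that length, 13.6% held the first, 37.3% the CCAAT box and 6.30% the C/EBP core. The Glycam1 window is chr15:103565032-103565331 on the minus strand, that of Hist1h2ai chr13:21716162-21716461 and that of Hist1h3h chr13:21717378-21717677, both on the plus strand. That of Lcn2 is chr2:32387690-32387989 on the minus strand and that of Ngp chr9:110419558-110419857 on the plus strand.
Glycam1: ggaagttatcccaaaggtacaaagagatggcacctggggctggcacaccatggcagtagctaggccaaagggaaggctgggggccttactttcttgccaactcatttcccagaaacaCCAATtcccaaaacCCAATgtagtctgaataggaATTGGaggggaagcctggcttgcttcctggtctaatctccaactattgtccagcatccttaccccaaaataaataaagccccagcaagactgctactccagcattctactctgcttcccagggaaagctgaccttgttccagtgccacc
Hist1h2ai: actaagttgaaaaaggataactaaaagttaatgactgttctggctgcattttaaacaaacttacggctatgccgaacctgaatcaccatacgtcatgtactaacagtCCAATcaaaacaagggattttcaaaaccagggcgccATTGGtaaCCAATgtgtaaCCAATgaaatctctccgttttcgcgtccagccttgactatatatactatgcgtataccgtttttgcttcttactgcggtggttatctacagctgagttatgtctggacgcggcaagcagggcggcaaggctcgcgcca
Hist1h3h: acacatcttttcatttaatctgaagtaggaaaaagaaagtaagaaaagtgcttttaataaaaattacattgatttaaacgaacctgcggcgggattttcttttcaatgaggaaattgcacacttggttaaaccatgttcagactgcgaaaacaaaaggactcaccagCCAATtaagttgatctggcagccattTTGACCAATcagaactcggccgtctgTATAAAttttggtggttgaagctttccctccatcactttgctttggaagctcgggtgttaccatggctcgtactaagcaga
Lcn2: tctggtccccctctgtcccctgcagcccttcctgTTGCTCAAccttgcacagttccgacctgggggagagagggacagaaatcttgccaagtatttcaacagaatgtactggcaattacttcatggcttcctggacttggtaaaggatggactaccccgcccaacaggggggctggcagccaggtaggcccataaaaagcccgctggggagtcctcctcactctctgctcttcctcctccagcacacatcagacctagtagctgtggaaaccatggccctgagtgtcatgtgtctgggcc
Ngp: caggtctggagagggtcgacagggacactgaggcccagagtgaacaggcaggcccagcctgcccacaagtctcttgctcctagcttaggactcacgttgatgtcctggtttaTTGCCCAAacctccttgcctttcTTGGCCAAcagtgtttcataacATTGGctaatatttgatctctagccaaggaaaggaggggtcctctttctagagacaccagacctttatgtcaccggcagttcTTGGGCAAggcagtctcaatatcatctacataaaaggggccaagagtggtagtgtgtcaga
The 2 histone windows each held CCAAT, that of Hist1h3h also held the TATA box and the C/EBP core, and neither Lcn2 nor Ngp held the TATA box.

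Gm10591 had 31.4 FPKM in B6F, against 3.69 FPKM in B6M and 0.646 FPKM in SryHi, a log2 ratio of 2.79. Its reference transcript is identical over its whole length to that of Ccl21b and 99.5% identical to that of Ccl21a. CCL21 is the chemokine that draws T cells and dendritic cells through CCR7. Ccl21a and Ccl21b were listed at 0 in both pools, although stromal cells of a node are known to make CCL21 in quantity, so which of the copies the fragments came from cannot be told. Ccr7, the receptor of that chemokine, had 44.5 FPKM in B6F and 41.2 FPKM in B6M, a log2 ratio of 0.11.

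Histone genes of the replication-dependent kind, whose transcripts lack a poly(A) tail and are made in S phase, had the 2 largest ratios of protein-coding genes. Hist1h3h had 43.7 FPKM in B6F, against 1.76 FPKM in B6M and 1.01 FPKM in SryHi (log2 ratio 4.02). Hist1h2ai had 75.4 FPKM in B6F, against 5.39 FPKM in B6M and 0.983 FPKM in SryHi (3.58). Both were high in the B6F pool alone. Hist1h2bl, which starts beside Hist1h2ai and runs the other way, had 26.2 FPKM in B6F and 8.45 FPKM in B6M (1.52). These 3 genes lie within GRCm38 chr13:21715763-21718069. Of 70 listed histone genes 58 were measured, with 5 at least 2-fold higher, 4 at least 2-fold lower and a median of -0.20. Hist1h2ao, with 61.8 FPKM in B6F and 13.4 FPKM in B6M (2.13), and Hist1h2bn (1.09) were the other genes past 2-fold upwards, while Hist1h2bf, Hist1h4k, Hist1h3a and Hist1h4n were past 2-fold downwards, between -1.12 and -1.004.

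These genes have near-identical copies, and their single values are uncertain for that reason. The transcript of Hist1h2ai was at least 95% identical to those of 13 other genes, among them Hist1h2aj at 99.7%. Summed over Hist1h2ai and its autosomal copies, 14 genes had 346 FPKM in B6F and 273 FPKM in B6M, a log2 ratio of 0.34 in place of 3.58. Summed over Hist1h3h and its copies, 9 genes had 289.8 FPKM in B6F and 261.7 FPKM in B6M, a log2 ratio of 0.15 in place of 4.02. By kind, H2A genes summed to 441 FPKM in B6F and 351 FPKM in B6M, and H4 genes to 846 FPKM in B6F and 1092 FPKM in B6M. H2B genes summed to 501 FPKM in B6F and 522 FPKM in B6M, H3 genes to 362 FPKM in B6F and 336 FPKM in B6M, and H1 genes to 331 FPKM in B6F and 383 FPKM in B6M. No kind of histone differed as much as its leading gene. The most abundant members, Hist1h4d and Hist1h4c, had log2 ratios of -0.13 and -0.36.

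**Figure D3:**
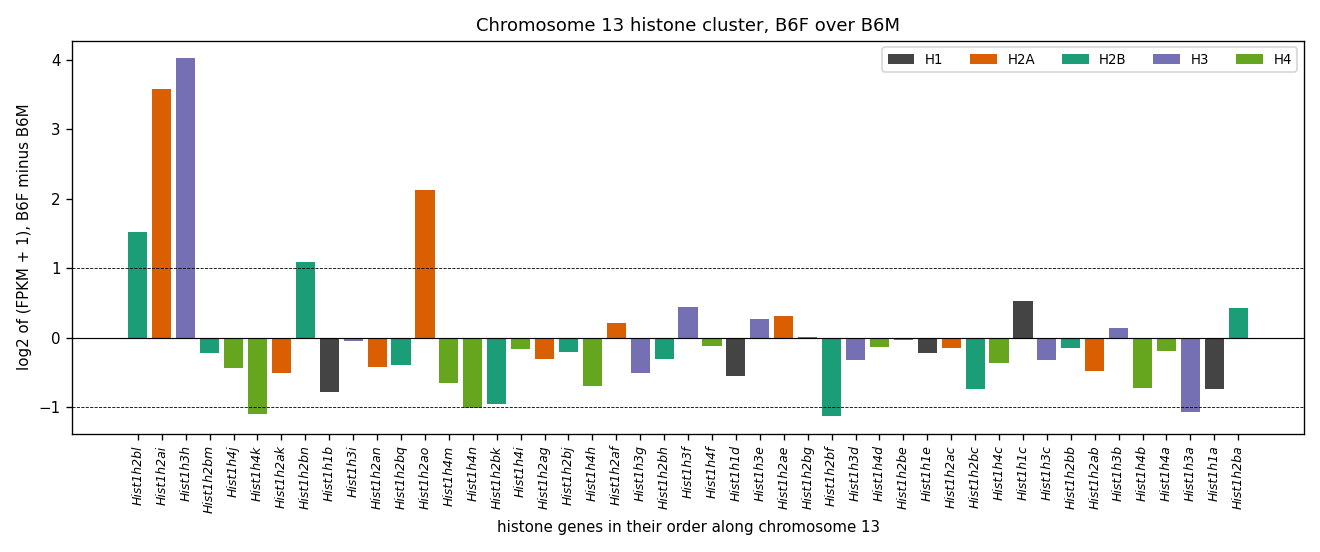
Log2 ratio (vertical axis, B6F over B6M) of each measured histone gene of the chromosome 13 cluster, in its order along the chromosome, coloured by histone kind, with dashed lines at 2-fold. The high bars at the left are Hist1h2bl (1.52), Hist1h2ai (3.58) and Hist1h3h (4.02), and most other bars are within 2-fold.

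Over all 119 protein-coding genes past 2-fold, 22 had a copy at least 95% identical over 50% or more of the transcript, 13 of the higher and 9 of the lower ones, and for 19 of the 22 an autosomal copy added to the sum over gene and copies, which was still past 2-fold for 4. Without genes of this kind, 27 were higher and 70 lower. Hba-a1, an alpha globin chain of red cells, had 25.8 FPKM in B6F and 3.97 FPKM in B6M (2.43), and with its copy Hba-a2 the sum was 27.6 FPKM in B6F and 5.27 FPKM in B6M. Hbb-bs, the beta chain that pairs with it, went the other way, with 26.3 FPKM in B6F and 57.6 FPKM in B6M (-1.10). Rnaset2a, a ribonuclease, had 12.4 FPKM in B6F and 2.55 FPKM in B6M (1.92), and summed with its copy Rnaset2b the log2 ratio was 0.63.

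Among the 15 highest protein-coding genes, 6 had no such copy beside Glycam1 and the T cell gene Trat1. Ly6i, a GPI-anchored surface protein of myeloid cells, had 13.1 FPKM in B6F, against 1.32 FPKM in B6M and 3.65 FPKM in SryHi, a log2 ratio of 2.60. Auts2, a regulator of transcription studied mainly in neurons, had 29.99 FPKM in B6F, against 4.27 FPKM in B6M and 4.76 FPKM in SryHi, with a ratio of 7.02 (counting interval 6.07 to 8.16). Saa3, an acute-phase protein made locally by macrophages and adipocytes, had 10.05 FPKM in B6F, against 1.90 FPKM in B6M and 0.936 FPKM in SryHi (1.93). In all 3 the B6F pool exceeded both pools of males. Gmppb, which makes GDP-mannose for glycosylation, had 18.95 FPKM in B6F and 5.41 FPKM in B6M (1.64). Ube2v2, a ubiquitin-conjugating enzyme variant, had 10.6 FPKM in B6F and 3.16 FPKM in B6M (1.48), but 11.1 FPKM in SryHi. Asrgl1, an asparaginase, had 12.98 FPKM in B6F and 4.17 FPKM in B6M (1.44). The other 25 higher genes lay between 1.002 (Gm5431) and 1.37 (Rasgrf2). They included Cxcl9, a chemokine induced by interferon gamma, with 17.7 FPKM in B6F and 6.71 FPKM in B6M (1.28), and H2-M2, a non-classical MHC class I gene, with 25.2 FPKM in B6F and 9.64 FPKM in B6M (1.30).

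**Figure D4:**
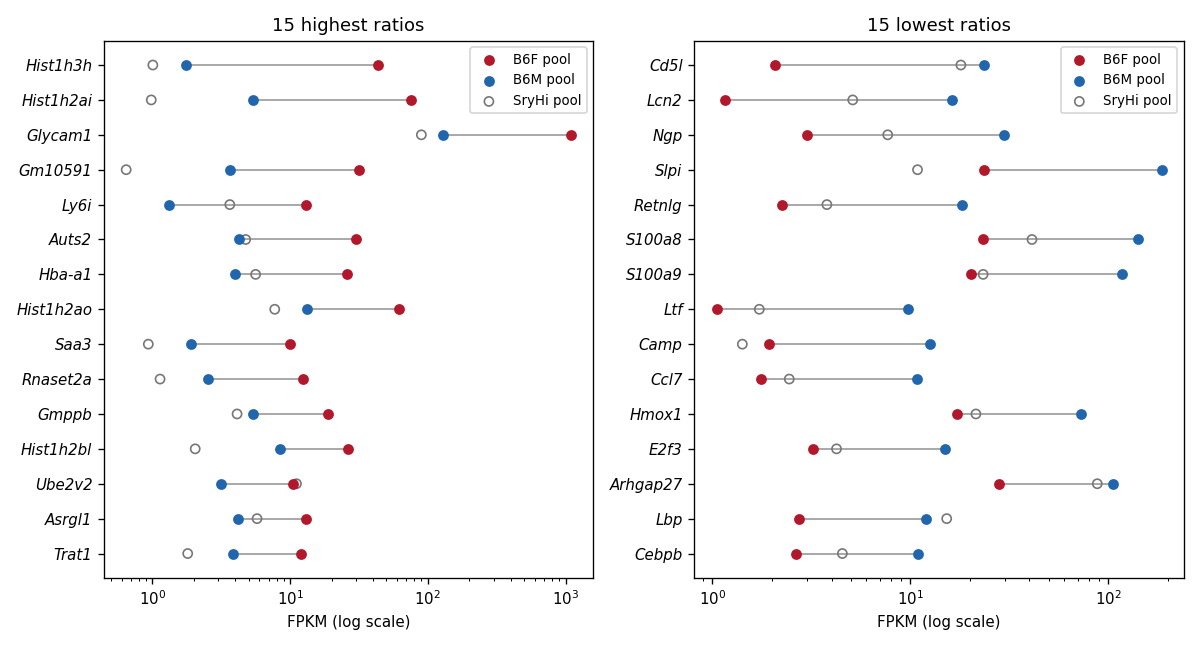
The 15 protein-coding genes with the highest (left) and the 15 with the lowest (right) B6F over B6M ratio. The horizontal axis is FPKM on a log scale, red points are the B6F pool, blue points the B6M pool and open circles the SryHi pool; Glycam1 sits at 1098 FPKM in B6F, against 129 in B6M and 89.8 in SryHi, and Slpi at 23.5 FPKM in B6F, against 186 in B6M and 10.9 in SryHi.

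Genes of neutrophil granules were the lowest in B6F. Of 26 listed neutrophil genes 12 were measured, 10 of them at least 2-fold lower and 1, the formyl peptide receptor Fpr2 (1.08), at least 2-fold higher, with a median log2 ratio of -2.44 beside 0.02 over all autosomal genes. Their summed level was 98.4 FPKM in B6F and 567 FPKM in B6M. Several of the 12, such as Lcn2, Ltf and Camp, reached the minimum only through B6M, and Fpr2 only through B6F. The median and the counts thus partly follow from the filter. Ratios of the 14 genes below the minimum ran from -3.17 (Wfdc21) to 0 (Stfa1 and BC100530, listed at 0 in both pools). Over all 26 genes the sum was 109 FPKM in B6F and 610 FPKM in B6M. S100a8 and S100a9, the 2 chains of calprotectin, had 23.4 and 20.2 FPKM in B6F, against 141 and 117 FPKM in B6M and 41.2 and 23.3 FPKM in SryHi (log2 ratios -2.54 and -2.48). Slpi, an inhibitor of neutrophil elastase, had 23.5 FPKM in B6F, against 186 FPKM in B6M and 10.9 FPKM in SryHi (-2.93). For these 3 genes the B6M pool was the high one and B6F and SryHi were both low. Lcn2, which binds bacterial iron carriers, had 1.16 FPKM in B6F and 16.2 FPKM in B6M (-2.99). Ngp, a granule protein, had 3.01 FPKM in B6F and 29.8 FPKM in B6M (-2.94). Ltf, lactoferrin, had 1.05 FPKM in B6F and 9.78 FPKM in B6M (-2.39), and Camp, the cathelicidin peptide, had 1.94 FPKM in B6F and 12.6 FPKM in B6M (-2.21). Retnlg, a resistin-like secreted protein, had 2.24 FPKM in B6F and 18.2 FPKM in B6M (-2.56). In SryHi, Lcn2 had 5.12 FPKM, Ngp 7.69 FPKM, Ltf 1.73 FPKM, Camp 1.42 FPKM and Retnlg 3.79 FPKM. For these genes too the B6M pool was the highest.

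Genes of the primary granules, which are made first in the bone marrow, were below the minimum. Prtn3, proteinase 3, had 0.571 FPKM in B6F and 5.84 FPKM in B6M, Mpo, myeloperoxidase, had 0.659 FPKM in B6F and 4.61 FPKM in B6M, and Elane, neutrophil elastase, had 0.549 FPKM in B6F and 3.38 FPKM in B6M. All 3 were lower in B6F than in B6M, and so they were in SryHi, at 1.13, 1.03 and 0 FPKM. Receptors of mature neutrophils differed less. Csf3r, the receptor of granulocyte colony-stimulating factor, had 5.46 FPKM in B6F and 12.9 FPKM in B6M (-1.11), and Cxcr2 had 6.06 FPKM in B6F and 11.4 FPKM in B6M (-0.81). Cebpb, a C/EBP transcription factor that drives myeloid genes, was also among the 15 lowest (-1.71). Cebpb had 2.65 FPKM in B6F, against 10.9 FPKM in B6M and 4.54 FPKM in SryHi. Of the promoters of the 8 neutrophil genes among the 15 lowest, 5 held TTGNNCAA, the core shown in capitals in Lcn2 and Ngp. The CCAAT box was in 3 of them and TATAAA in 2. Over all autosomal promoters the shares were 6.30%, 37.3% and 13.6%. These 8 genes were picked by their ratios, and a match is a description of the letters and no site. A link between these matches and the Cebpb value was not tested. In whole nodes, fewer cells of a type and less RNA per cell cannot be told apart, here or for any list below.

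Scavenger receptors and other genes of sinus macrophages were lower in B6F as a list. All 11 measured genes of 17 had a ratio below 0, with a median of -0.70. At least 2-fold lower were 2 of them, beside 1.99% of all autosomal genes. Just below the minimum, Mgl2 went the other way, with 6.53 FPKM in B6F and 3.30 FPKM in B6M (0.81). Cd209f, also below it, had 2.83 FPKM in B6F and 7.01 FPKM in B6M (-1.06). Cd5l, a secreted protein of tissue macrophages that binds lipids and dying cells, had 2.06 FPKM in B6F, against 23.5 FPKM in B6M and 18.0 FPKM in SryHi, the lowest ratio of all protein-coding genes (-3.00, ratio 0.0876 with a counting interval of 0.0566 to 0.134). Marco, a receptor for bacteria on sinus macrophages, had 49.3 FPKM in B6F, against 137 FPKM in B6M and 170 FPKM in SryHi (-1.45). Both genes were low in the B6F pool alone, and Cd5l reached the minimum only through B6M. Cd209b, the SIGN-R1 lectin, had 126 FPKM in B6F and 208 FPKM in B6M (-0.72), and Siglec1, sialoadhesin of subcapsular macrophages, had 20.6 FPKM in B6F and 38.1 FPKM in B6M (-0.86). General markers of macrophages and monocytes differed less, with a median of -0.23 over 17 measured genes and none past 2-fold. Lyz2, lysozyme, had 586 FPKM in B6F and 648 FPKM in B6M (-0.14), while Cd68 had 32.4 FPKM in B6F and 53.5 FPKM in B6M (-0.71).

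Genes of haem and iron handling were lower in B6F too. Of 15 measured genes 13 had a ratio below 0, with a median of -0.37. Past 2-fold were 3: Hmox1, Slc40a1 and Lcn2, the last of which is also counted in the neutrophil list. Hmox1, which splits haem, had 17.3 FPKM in B6F, against 72.6 FPKM in B6M and 21.5 FPKM in SryHi (-2.01). Slc40a1, ferroportin, the exporter of iron, had 10.48 FPKM in B6F and 31.7 FPKM in B6M (-1.51). Fth1, the heavy chain of ferritin, had 413 FPKM in B6F and 687 FPKM in B6M (-0.73). Spic, a transcription factor of red pulp and other iron-recycling macrophages, had 14.8 FPKM in B6F and 23.1 FPKM in B6M (-0.61). Tfrc, which imports iron into dividing cells, had 38.0 FPKM in B6F and 37.0 FPKM in B6M.

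Of the chemokine ligands, 16 of 39 listed genes were measured, with a median of -0.22, 1 at least 2-fold higher (Cxcl9) and 4 at least 2-fold lower in B6F. The 4 were the monocyte chemoattractants that lie together on chromosome 11. Ccl7 had 1.76 FPKM in B6F and 10.8 FPKM in B6M (-2.10), Ccl12 had 11.8 FPKM in B6F and 33.0 FPKM in B6M (-1.41), and Ccl2 had 3.12 FPKM in B6F and 8.91 FPKM in B6M (-1.26). Ccl8, the most abundant of them, had 87.9 FPKM in B6F, against 210 FPKM in B6M and 67.7 FPKM in SryHi (-1.25). Their neighbour Ccl11, eotaxin, stood at 15.6 FPKM in B6F and 15.2 FPKM in B6M (0.03). Ccl17, made by dendritic cells, had 8.36 FPKM in B6F and 4.597 FPKM in B6M (0.74). The stromal Cxcl12 had 265 FPKM in B6F and 335 FPKM in B6M (-0.34). Il1b, the inflammatory cytokine, was the only one of 26 measured interleukins and receptors past 2-fold, with 3.05 FPKM in B6F and 10.1 FPKM in B6M (-1.45). Il1b, Ccl7 and Ccl2 reached the minimum only through B6M.

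Of 19 mast cell and basophil genes 6 were measured, all below 0, with a median of -0.96 and 3 at least 2-fold lower in B6F. Mcpt4, a chymase of connective tissue mast cells, had 31.8 FPKM in B6F, against 87.9 FPKM in B6M and 98.3 FPKM in SryHi (-1.44). Its neighbour Cma1 had 16.4 FPKM in B6F and 41.1 FPKM in B6M (-1.27), and the tryptase Tpsb2 had 21.9 FPKM in B6F and 45.6 FPKM in B6M (-1.02). All 6 were higher in SryHi than in B6M, so B6F was the lowest of the 3 pools. Kit, the receptor of stem cell factor, had 9.11 FPKM in B6F and 10.7 FPKM in B6M. The only measured eosinophil gene, Ear2, had 15.2 FPKM in B6F and 12.2 FPKM in B6M.

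T cell genes stood above the median as a list, though by less than 2-fold. All 26 had a ratio above 0, with a median of 0.45 beside 0.02 over all autosomal genes, and 1, Trat1, was past 2-fold; on one FPKM sum over all symbols 19 were above 0 and the median was 0.19. Trat1, an adaptor of the T cell receptor complex, had 12.0 FPKM in B6F, against 3.84 FPKM in B6M and 1.81 FPKM in SryHi (1.43). Themis, which tunes T cell receptor signals, had 45.2 FPKM in B6F and 22.9 FPKM in B6M (0.95). The chains of the CD3 complex differed in their ratios. Cd3d had 32.5 FPKM in B6F and 19.0 FPKM in B6M (0.74), Cd247 had 42.6 FPKM in B6F and 26.0 FPKM in B6M (0.69), and Cd3e had 53.8 FPKM in B6F and 53.3 FPKM in B6M (0.01). Cd8a, the coreceptor of cytotoxic T cells, had 53.4 FPKM in B6F and 38.1 FPKM in B6M (0.48), whereas Cd4 had 40.5 FPKM in B6F and 39.9 FPKM in B6M (0.02).

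Of 17 genes of naive and central memory T cells 12 were above 0, with a median of 0.11 and none past 2-fold; rescaling both pools to one FPKM sum over all symbols turned this median to -0.15. Lef1, which helps keep T cells in the naive state, had 73.3 FPKM in B6F and 47.3 FPKM in B6M (0.62), and Dapl1 had 22.3 FPKM in B6F and 13.1 FPKM in B6M (0.72). Cd44, which marks antigen-experienced cells, had 51.6 FPKM in B6F and 57.2 FPKM in B6M (-0.15). Genes of T regulatory cells had a median of 0.29 over 11 measured, of 0.06 on the rescaled values and of -0.05 with a minimum of 20 FPKM. Foxp3, which is X-linked, was left out of this list, and Ikzf4 and Tigit were below the minimum of 5 FPKM. Tnfrsf4, OX40, had 13.7 FPKM in B6F and 7.80 FPKM in B6M (0.74), and Il2ra, CD25, had 12.4 FPKM in B6F and 10.9 FPKM in B6M (0.18). The list's single gene past 2-fold was Lrrc32, which displays latent TGF-beta and is also made by endothelium, with 3.13 FPKM in B6F and 9.04 FPKM in B6M (-1.28). Lrrc32 reached the minimum only through B6M. Of 20 cytotoxic and NK cell genes 5 were measured, among them Ccl5, with 103 FPKM in B6F and 131 FPKM in B6M (-0.34), and the NK receptor chain Klrd1, with 38.1 FPKM in B6F and 28.1 FPKM in B6M (0.43).

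B cell genes had a median of -0.13 over 22 measured genes, with 15 below 0 and none past 2-fold. Cd37, a tetraspanin, had 278.8 FPKM in B6F and 276.7 FPKM in B6M (0.01). Pou2af1, a coactivator of immunoglobulin genes, had 64.8 FPKM in B6F and 95.7 FPKM in B6M (-0.56), and Spib had 63.7 FPKM in B6F and 91.8 FPKM in B6M (-0.52). Genes of the germinal centre and of plasma cells, which secrete antibody, were all 10 below 0, with a median of -0.31. Jchain, which joins IgM and IgA units, had 201 FPKM in B6F and 273 FPKM in B6M (-0.44). Mzb1, a helper of antibody secretion, had 25.7 FPKM in B6F and 42.4 FPKM in B6M (-0.70).

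The constant regions of the immunoglobulins differed by class. Ighg1, the constant region of IgG1, had 75.02 FPKM in B6F, against 554 FPKM in B6M and 214 FPKM in SryHi (-2.87, ratio 0.135 with a counting interval of 0.127 to 0.144). Ighg2b had 152 FPKM in B6F, against 791 FPKM in B6M and 307 FPKM in SryHi (-2.37). These were the 2 classes past 2-fold downwards, and for both the B6M pool was the highest. Ighg2c had 291 FPKM in B6F and 380 FPKM in B6M (-0.39), and Ighg3 had 21.9 FPKM in B6F and 24.8 FPKM in B6M (-0.17). Ighm had 876 FPKM in B6F and 1298 FPKM in B6M (-0.57), while Ighd, made with it in naive B cells, had 359 FPKM in B6F and 335 FPKM in B6M (0.10). Ighe was the only class past 2-fold upwards, with 16.7 FPKM in B6F and 7.14 FPKM in B6M (1.12). Igkc, the kappa light chain, had 2422 FPKM in B6F and 4207 FPKM in B6M (-0.80).

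Genes of the unfolded protein response, which secretory cells need to fold proteins in the endoplasmic reticulum, were below 0 in all 15 measured cases, with a median of -0.42 and none past 2-fold. Sdf2l1 had 6.67 FPKM in B6F and 14.3 FPKM in B6M (-0.999, just inside 2-fold), Hspa5, the chaperone BiP, had 98.7 FPKM in B6F and 148 FPKM in B6M (-0.58), and Calr, calreticulin, had 87.8 FPKM in B6F and 143 FPKM in B6M (-0.70). Cytosolic heat shock genes had a median of -0.32 over 10 measured. Hsph1 was the 1 past 2-fold, with 9.01 FPKM in B6F and 26.2 FPKM in B6M (-1.44), and Hspa8 had 296 FPKM in B6F and 413 FPKM in B6M (-0.48).

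Immediate early genes, which are switched on within minutes of a stimulus and by tissue handling, had a median of -0.32 over 17 measured, with 4 at least 2-fold lower in B6F. Jun had 4.42 FPKM in B6F and 12.3 FPKM in B6M (-1.29), Nr4a1 had 7.04 FPKM in B6F and 18.6 FPKM in B6M (-1.29), Egr1 had 10.9 FPKM in B6F and 24.5 FPKM in B6M (-1.10) and Cyr61 had 3.56 FPKM in B6F and 12.1 FPKM in B6M (-1.53). Jun and Cyr61 reached the minimum only through B6M. Junb and Jund, at higher levels, had ratios of -0.39 and -0.32. Genes that respond to glucocorticoids had a median of -0.59, with 10 of 11 below 0. Errfi1 had 14.2 FPKM in B6F and 31.3 FPKM in B6M (-1.09), Sgk1 had 26.0 FPKM in B6F and 41.5 FPKM in B6M (-0.66), Fkbp5 had 13.7 FPKM in B6F and 22.3 FPKM in B6M (-0.66) and Mt1, a metallothionein, had 17.4 FPKM in B6F and 31.3 FPKM in B6M (-0.81). Per1, which is also a clock gene, had 20.5 FPKM in B6F and 18.1 FPKM in B6M (0.17). The share of handling or time of day in these values was not tested.

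**Figure D5:**
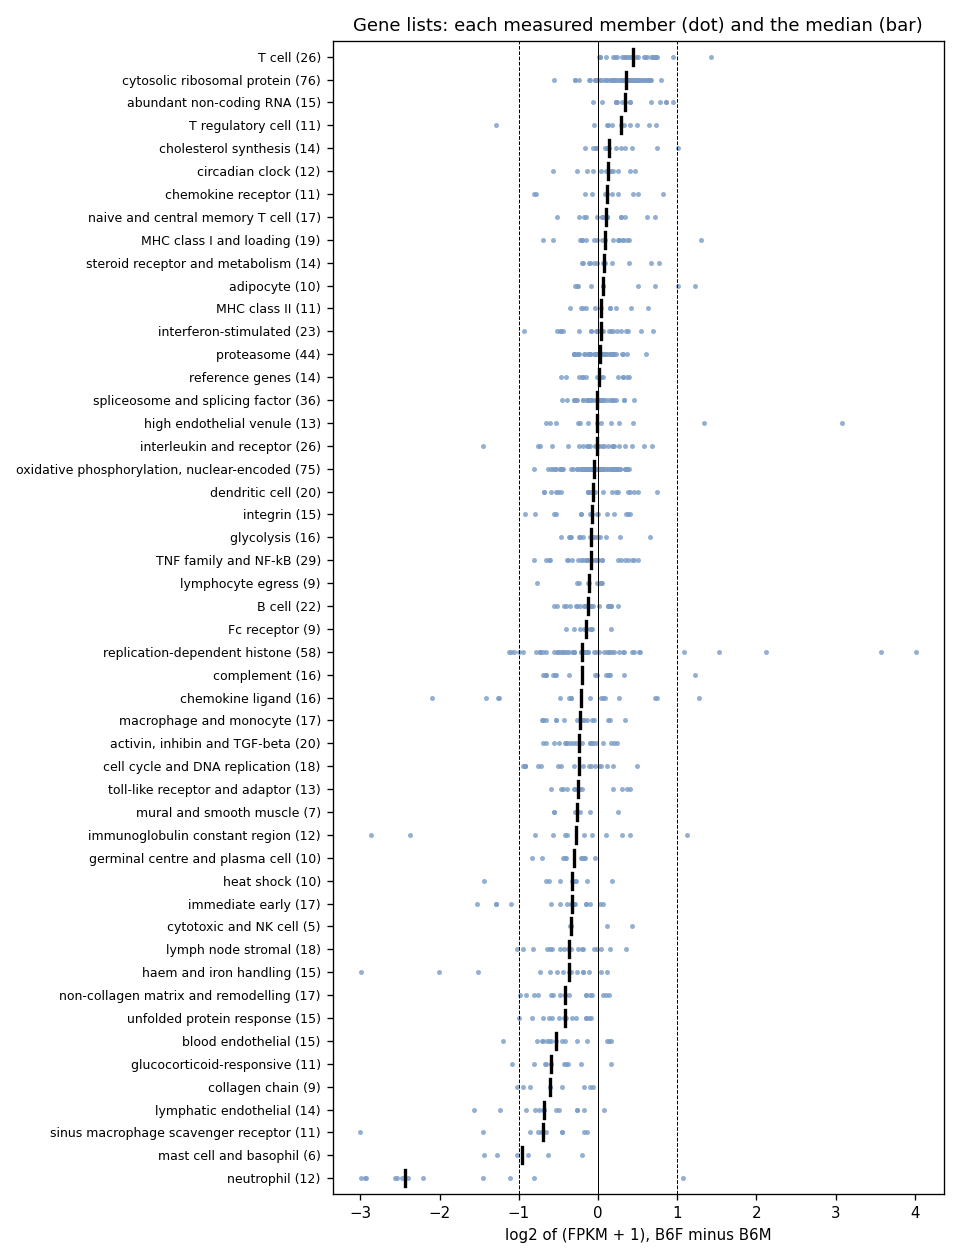
Gene lists with 5 or more measured autosomal members, antigen receptor segments and small nucleolar RNAs left out, one per line with the number measured, against the log2 ratio, B6F over B6M (horizontal axis). Each dot is a gene, black bars are medians and dashed lines mark 2-fold; of the lists drawn, the neutrophil list has the lowest median (-2.44) and the T cell list the highest (0.45).

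The vessel walls and the stroma were on the lower side in B6F. Blood endothelial genes had a median of -0.53 over 15 measured, with 1 past 2-fold, Cldn5, a tight junction protein, with 11.1 FPKM in B6F and 26.9 FPKM in B6M (-1.20). Plvap had 39.7 FPKM in B6F and 68.4 FPKM in B6M (-0.77), but Pecam1, the most abundant, had 110 FPKM in B6F and 102 FPKM in B6M (0.11). Lymphatic endothelial genes had a median of -0.68 over 14 measured, 13 of them below 0. Lyve1, a hyaluronan receptor also found on macrophages, had 18.8 FPKM in B6F, against 45.6 FPKM in B6M and 41.4 FPKM in SryHi (-1.24). Reln, a secreted glycoprotein of lymphatic vessels, had 3.90 FPKM in B6F, against 13.5 FPKM in B6M and 18.6 FPKM in SryHi (-1.57). Reln reached the minimum only through B6M. Prox1, the transcription factor that sets lymphatic fate, had 6.65 FPKM in B6F and 11.4 FPKM in B6M (-0.69).

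Stromal genes of the node had a median of -0.36 over 18 measured, and 15 were below 0. All 9 measured collagen chains were below 0, with a median of -0.60, and 1 was past 2-fold: Col1a1, with 7.22 FPKM in B6F and 15.7 FPKM in B6M (-1.03). Col3a1 had 17.2 FPKM in B6F and 34.1 FPKM in B6M (-0.95). Other matrix genes had a median of -0.41 over 17 measured, with Sparc at 32.3 FPKM in B6F and 65.0 FPKM in B6M (-0.99). Dcn, decorin, was the most abundant transcript of fibroblasts in the stromal list after Cxcl12, with 166 FPKM in B6F, 217 FPKM in B6M and 426 FPKM in SryHi (-0.38). Mural cell genes had a median of -0.26 over 7 measured, and their most abundant member, Rgs5, had 52.6 FPKM in B6F and 44.1 FPKM in B6M (0.25). Genes of activin, inhibin and TGF-beta signalling had a median of -0.24 over 20 measured, with 16 below 0 and none past 2-fold. Tgfb1 had 64.7 FPKM in B6F and 82.9 FPKM in B6M (-0.35), and Eng, a coreceptor of endothelium, had 19.99 FPKM in B6F and 33.0 FPKM in B6M (-0.70). Inha, Inhba and Inhbb, the inhibin subunits, were below the minimum, at 0.752, 0.0963 and 0.892 FPKM in B6F, against 0.285, 0.363 and 1.34 FPKM in B6M.

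Genes of fat, which surrounds the node, gave a mixed picture. Of 10 measured adipocyte genes 2 were at least 2-fold higher in B6F, Cfd, adipsin, with 24.2 FPKM in B6F, against 9.77 FPKM in B6M and 45.8 FPKM in SryHi (1.23), and Car3, a carbonic anhydrase, with 29.2 FPKM in B6F, against 14.01 FPKM in B6M and 50.2 FPKM in SryHi (1.01). Fabp4, a fatty acid carrier, had 46.8 FPKM in B6F and 49.95 FPKM in B6M (-0.09), and Scd1 had 94.1 FPKM in B6F and 114 FPKM in B6M (-0.27). The list's median was 0.06, so its measured members were not higher as a group. Most of the 9 below the minimum were higher in B6F, among them Adipoq, with 4.18 FPKM in B6F and 1.94 FPKM in B6M. The exceptions were Slc2a4, with 0.258 FPKM in B6F and 2.34 FPKM in B6M, and Plin1, with 1.17 and 1.41 FPKM. Over all 19 the sum was 292 FPKM in B6F and 277 FPKM in B6M. Of 20 skeletal muscle genes 2 were measured. Ttn, titin, had 11.4 FPKM in B6F and 10.4 FPKM in B6M, and Des, desmin, which mural cells also make, had 13.7 FPKM in B6F and 20.6 FPKM in B6M (-0.56). Of the 18 below the minimum 17 were higher in B6F, among them Mylpf, a myosin light chain, with 6.73 FPKM in B6F and 2.83 FPKM in B6M, and Pvalb, parvalbumin, with 4.28 FPKM in B6F and 0.604 FPKM in B6M. Over all 20 the sum was 64.6 FPKM in B6F and 50.7 FPKM in B6M. Mbp, a myelin protein also made in lymphoid cells, had 19.5 FPKM in B6F and 17.6 FPKM in B6M. The part of surrounding fat, muscle or blood in the other results was not tested.

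Innate receptors and complement were near or below the median. Of 16 measured complement genes 1, Cfd, was past 2-fold, and the median was -0.20, with C1qa at 55.9 FPKM in B6F and 91.0 FPKM in B6M (-0.69) and C3 at 223 FPKM in B6F and 289 FPKM in B6M (-0.37). Toll-like receptors and adaptors had a median of -0.26 over 13 measured, which became 0.19 with a minimum of 20 FPKM. Myd88 had 12.3 FPKM in B6F and 17.4 FPKM in B6M (-0.47) and Cd180 had 111 FPKM in B6F and 83.7 FPKM in B6M (0.40). Fc receptors had a median of -0.15 over 9 measured, 8 of them below 0. Genes of the TNF family and NF-kB had a median of -0.08 over 29, with Tnfsf12 the farthest from 0, at 3.52 FPKM in B6F and 6.88 FPKM in B6M (-0.80). None of these 3 lists had a gene past 2-fold.

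Antigen presentation and interferon genes were near the median of all genes. MHC class II genes had a median of 0.04 over 11 measured, with H2-Aa at 1487 FPKM in B6F and 1109 FPKM in B6M (0.42) and the invariant chain Cd74 at 1087 FPKM in B6F and 1388 FPKM in B6M (-0.35). MHC class I genes had a median of 0.09 over 19, with B2m at 2033 FPKM in B6F and 1712 FPKM in B6M (0.25), and interferon-stimulated genes a median of 0.03 over 23. The last list split into 12 above and 11 below 0. Igtp, a GTPase induced by interferon gamma, had 19.1 FPKM in B6F and 11.4 FPKM in B6M (0.69), while Irf7, a factor of the type I response, had 11.4 FPKM in B6F and 22.6 FPKM in B6M (-0.94). Dendritic cell genes had a median of -0.07 over 20, with Fscn1, of migrating cells, at 27.7 FPKM in B6F and 45.1 FPKM in B6M (-0.68). Chemokine receptors had a median of 0.11 over 11, with Cxcr6 at 15.9 FPKM in B6F and 8.54 FPKM in B6M (0.83) and Cxcr4 at 50.8 FPKM in B6F and 88.4 FPKM in B6M (-0.79). On one FPKM sum over all symbols, the medians of the MHC class II, MHC class I, interferon and chemokine receptor lists were below 0, between -0.22 and -0.15, and with a minimum of 20 FPKM that of the chemokine receptors was -0.08.

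Egress genes had a median of -0.11 over 9 measured, with none past 2-fold. The receptor S1pr1, by which lymphocytes leave the node, had 73.7 FPKM in B6F and 74.2 FPKM in B6M (-0.01), and its regulator Klf2 had 89.3 FPKM in B6F and 86.6 FPKM in B6M (0.04). The farthest from 0 was S1pr3, a related receptor, with 7.92 FPKM in B6F and 14.2 FPKM in B6M (-0.77). Integrins had a median of -0.07 over 15 measured. Itga4 had 119.5 FPKM in B6F and 93.7 FPKM in B6M (0.35), and Itga9, of lymphatic vessels, had 8.40 FPKM in B6F and 16.8 FPKM in B6M (-0.92).

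Cell cycle genes had a median of -0.24 over 18 measured, with 13 below 0 and none past 2-fold. Mki67, the proliferation marker, had 8.93 FPKM in B6F and 18.2 FPKM in B6M (-0.95), and Stmn1 had 10.8 FPKM in B6F and 21.5 FPKM in B6M (-0.93). Pcna, the sliding clamp, had 54.9 FPKM in B6F and 58.4 FPKM in B6M (-0.09). E2f3, a factor that opens S phase, was among the 15 lowest, with 3.23 FPKM in B6F, against 14.99 FPKM in B6M and 4.24 FPKM in SryHi (-1.92). Arhgap27, a GTPase-activating protein, had 28.0 FPKM in B6F, against 105.5 FPKM in B6M and 88.0 FPKM in SryHi (-1.88). Lbp, which binds lipopolysaccharide, had 2.73 FPKM in B6F, against 12.0 FPKM in B6M and 15.3 FPKM in SryHi (-1.80). The remaining 64 lower genes lay between -1.57 (Wfdc17) and -1.002 (Card19).

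Genes of ribosomal proteins lay together, a little above the median. Of 76 measured genes of cytosolic ribosomal proteins 66 were above 0, with a median of 0.36 and none past 2-fold, while on one FPKM sum over all symbols 53 were above 0 and the median was 0.10. Their summed level was 42566 FPKM in B6F and 33297 FPKM in B6M. Rps27 had 2125 FPKM in B6F and 1520 FPKM in B6M (0.48), Rps29 had 1801 FPKM in B6F and 1367 FPKM in B6M (0.40) and Rpl15 had 91.8 FPKM in B6F and 52.4 FPKM in B6M (0.80). Many of these genes have processed pseudogenes, so their fragments can be shared. Oxidative phosphorylation genes had a median of -0.06 over 75, proteasome genes 0.02 over 44, splicing genes -0.01 over 36 and glycolysis genes -0.08 over 16, and none of these lists had a gene past 2-fold. Among common reference genes the median was 0.01 over 14, with Actb at 1965 FPKM in B6F and 2715 FPKM in B6M (-0.47), Gapdh at 104 FPKM in B6F and 105 FPKM in B6M (-0.01) and Eef1a1 at 2048 FPKM in B6F and 1954 FPKM in B6M (0.07).

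Cholesterol synthesis genes had a median of 0.14 over 14 measured, which became -0.10 on one FPKM sum over all symbols. Idi1, of the isoprenoid step, was past 2-fold with 13.004 FPKM in B6F and 5.95 FPKM in B6M (1.01), and Lss, lanosterol synthase, had 8.30 FPKM in B6F and 4.55 FPKM in B6M (0.74). Genes of steroid receptors and steroid metabolism had a median of 0.07 over 14, with none past 2-fold. Hsd11b1, which regenerates active glucocorticoid, had 30.5 FPKM in B6F and 18.8 FPKM in B6M (0.67), and Nr3c1, the glucocorticoid receptor, had 57.03 FPKM in B6F and 50.5 FPKM in B6M (0.17). Esr1, the oestrogen receptor, had 6.42 FPKM in B6F and 6.93 FPKM in B6M (-0.10). Clock genes had a median of 0.12 over 12, with Tef at 45.4 FPKM in B6F and 34.2 FPKM in B6M (0.40) and Bhlhe40 at 11.9 FPKM in B6F and 18.1 FPKM in B6M (-0.57).

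The SryHi values above came from the table that set SryHi against B6M. B6M values were the same in both tables, with 1 of 15325 symbols at 1 FPKM or more differing by over 0.1%. The comparisons of B6F and of SryHi with B6M share that library, so a high or low B6M value enters both.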

How the data were processed

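RNA from whole popliteal nodes was pooled within each group (6 B6F, 6 B6M and 3 SryHi mice, 1 library each). The deposited tables give FPKM per gene, which the authors computed with Cuffdiff; SAMtools, Cufflinks, Cuffdiff and build mm10 are named in the submitters' processing notes, and their versions are not given in the sources used here. FPKM corrects for transcript length and depth, is inflated for features much shorter than a fragment, and depends on how multiply mapped fragments were shared. The authors' fold changes, test statistics, p-values, q-values and significance calls in the same tables were not used. Each table held 48808 entries, 14549 of status OK and 34259 of status NOTEST, and 0 were dropped by status. Entries were summed per symbol, 231 symbols having several. Gene class, position and transcript length came from GENCODE M21, which matched 98.4% of entries; 21 autosomal genes at 5 FPKM or more were not matched and are counted among other classes. Near-identical copies were found with BLAST+ 2.17.0 on reference transcripts. Ratios, intervals and lists were computed in Python 3.11.15 with pandas 2.3.3 and scipy 1.17.1, and the scripts were tested on simulated data. With 1 library a group no test was run, and a gene was called at a 2-fold difference of (FPKM + 1). Depth was read from the modal value of FPKM times length among low genes with 1 transcript of 3000 to 8000 nt.

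The members and the 60 gene lists were chosen with earlier results of these data known. Named were the 15 largest and 15 smallest ratios of protein-coding genes with a transcript of 300 nt or more, the 5 largest and 5 smallest of other classes, the 2 largest ratios by size and the 2 highest means of each list, and autosomal genes the study discusses; genes named outside this rule (Ackr1, Ccl2, Ccl8, Ccl11, Cd34, Cd3d, Cd247, Cd79a, Csf3r, Cxcl9, Egr1, Enpp2, Esr1, Fkbp5, Fpr2, the IgD, IgE, IgG2c and IgG3 regions, Junb, Kit, Malat1, Neat1, Nr4a1, Per1, Prox1, Siglec1, Slc40a1, Spic, Tfrc, Wfdc17, Card19, Gm5431 and Rasgrf2 as ends of ranges, genes of runs and copies, and those below the minimum other than the inhibin subunits) were chosen after their values were seen. The alternatives were 2 other pseudocounts, other minimum levels, 3 rescalings, protein-coding genes alone, entries of status OK and the highest entry per symbol. One gene covered by the rule is not reported here.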

Additional observations from a re-analysis of the deposited data

How the results depend on the processing

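The counts past 2-fold depended on the minimum level and on the scale, and the lists less so. Over all autosomal genes, 223 were higher and 205 lower. A minimum of 1 FPKM gave 424 and 404, no minimum 543 and 495, a minimum of 20 FPKM 109 and 104, and protein-coding genes alone 40 and 79. A pseudocount of 5 FPKM gave 130 lower, and one FPKM sum over all symbols 324 lower. For protein-coding genes, a pseudocount of 5 FPKM gave 17 higher and 30 lower, a minimum of 1 FPKM 93 and 177, a minimum of 20 FPKM 7 and 29, and one FPKM sum over all symbols 23 and 175; these alternatives were chosen after seeing the data. That sum is set mainly by 2 joining segments, and using it moved the median of all autosomal genes to -0.23, a shift against which list medians are to be read. It turned the sign of 11 of 53 list medians, all of them below 0.20 in size. A common sum over protein-coding genes turned 3, centring 1, and a minimum of 1 FPKM 3. A minimum of 20 FPKM turned 5, to -0.05 for T regulatory cells, 0.07 for high endothelial venules, -0.09 for adipocytes, -0.08 for chemokine receptors and 0.19 for toll-like receptors. None of these turned the T cell, ribosomal protein or neutrophil list, but the pseudocounts and rescalings could not have turned medians of 0.45, 0.36 and -2.44. Nor could a minimum have turned the T cell list, where all 26 ratios were above 0. Ratios of named genes past 2-fold kept their sign, but the pseudocounts and rescalings could not have turned them. A pseudocount keeps the sign of a ratio, and the largest rescaling shifted log2 ratios by about -0.26. No paired analysis was possible because each group is 1 pooled library, and for the same reason no replicate could be left out. Depth limits single low genes, with a median of about 317 fragments per protein-coding gene in B6F and about 369 in B6M.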

Other observations

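Outside the protein-coding genes, antigen receptor segments and small RNAs held many of the ratios past 2-fold. Of 156 measured immunoglobulin variable or joining segments 21 were at least 2-fold higher and 45 at least 2-fold lower in B6F (13.5% and 28.8%, beside 12.6% and 8.67% over all 1454 genes outside the protein-coding set), with a median of -0.36. Ighv1-71 and Igkv8-18 were listed at 0 in B6F, against 45.6 and 30.6 FPKM in B6M. Of 36 measured T cell receptor segments 15 were higher and 6 lower (41.7% and 16.7%), with a median of 0.68. By annotation class, counted apart from this list, 15 joining segments held 8 higher and 6 lower. The 22 variable segments held 7 higher and 0 lower, with a median of 0.53. Traj21 had 148331 FPKM in B6F and was listed at 0 in B6M, while Trbj1-3 was listed at 0 in B6F and had 131214 FPKM in B6M. A segment listed at 0 in 1 pool was kept only through the other, so these counts and shares partly follow from the minimum. Joining segments of this kind are 57 and 54 nt long, and values of this size rest on the length term of FPKM. The segments Ighj4 and Ighj1, made up 58.5% and 14.1% of the summed FPKM of B6F, against 48.9% and 26.9% of that of B6M.

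Among abundant non-coding RNAs 14 of 15 measured were above 0, with a median of 0.34 and none past 2-fold. Rn7sk, which holds back transcription elongation, had 157651 FPKM in B6F, against 81695 FPKM in B6M (log2 ratio 0.95). Terc, the RNA of telomerase, had 61.8 FPKM in B6F and 33.6 FPKM in B6M (0.86), and Rpph1, the RNA of ribonuclease P, had 37434 FPKM in B6F and 28287 FPKM in B6M (0.40). Malat1 had a ratio of 0.05 and Neat1 one of -0.06. Of 47 measured small nucleolar and Cajal body RNAs 21 were higher and 9 lower (44.7% and 19.1%), with a median of 0.97. Snord104 had 57887 FPKM in B6F and 12304 FPKM in B6M, and Snord65 had 7014 FPKM in B6F and was listed at 0 in B6M. By class, 83 lincRNAs had a median of 0.22, 56 antisense genes 0.32, 341 processed pseudogenes 0.21 and 338 loci still to be experimentally tested (TEC) 0.22, beside -0.01 over protein-coding genes. Whether counting used the strand is not given in the sources used here, so reads of an antisense gene and of its partner cannot be told apart.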
